A study of Mus musculus with 2 samples.

Results

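C1 was the cluster of Il4i1+ mature cDC2 in a CITE-seq data set of splenic dendritic cells. Its members were all cells that carried cluster number 1 in the deposited clustering at resolution 0.5, which gave 2566 of 24343 cells. Of these, 721 came from the WT library of 12224 cells and 1845 from the Batf3-/- library of 12119 cells. In CITE-seq, RNA and barcoded antibodies on the surface are sequenced from the same cell, and each molecule is counted once through its unique molecular identifier (UMI). Both libraries held live MHCII+ CD11c+ cells, sorted from spleen after depletion of T and B cells, of 8-week-old female C57BL/6 mice that were either wildtype (WT) or deficient in Batf3 (Batf3-/-). Each library pooled the spleens of 6 mice and the experiment was done once, so there was 1 library per genotype and no replicate. No test between genotypes was therefore possible, and differences are called by size only, as a ratio of at least 2.

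Conventional dendritic cells (cDC) present antigen to T cells and fall into cDC1, which depend on the transcription factors BATF3 and IRF8 and cross-present antigen to CD8+ T cells, and the SIRPα+ cDC2. When they mature, with or without a microbial stimulus, cDCs take up less antigen, display costimulatory molecules and use the chemokine receptor CCR7 to move toward the T cell zones. Mature cDCs are known for non-canonical NF-κB signaling through RELB and for regulatory molecules such as the amino acid oxidase IL4I1.

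Levels are given as UMIs of a gene summed over the cells of a cluster and library per 1000000 UMIs of those cells (CPM). Exact Poisson 95% intervals stand beside CPM, exact binomial intervals beside ratios and Clopper-Pearson 95% intervals beside shares. All of them cover counting error only, not differences between mice, pools or libraries. C1 held 4971606 UMIs in WT and 13712894 in Batf3-/-, so that the limit set by 3 counts was 0.603 and 0.219 CPM. The median was 6176 UMIs per C1 cell in WT and 6753 in Batf3-/-, below the library medians of 8374.5 and 8516. Mitochondrial genes took 4.38% and 4.18% of the UMIs of C1 and ribosomal protein genes 20.03% and 22.0%. SingleR, a reference-based classifier run by the authors, had labelled 720 of 721 WT and 1844 of 1845 Batf3-/- cells as dendritic cells, and 620 and 1613 of them were in phase G1. Between the libraries 56 cell barcodes were shared, and C1 held 3 of them in WT and 7 in Batf3-/-. Because C1 was built from the same transcripts that are described here, its levels against other clusters are a description of the cluster.

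The 4 markers of the label were all high in C1, but only Fabp5 was beyond every other cluster in both libraries. Il4i1, which oxidizes phenylalanine and lies on chromosome 7 of GRCm38 from 44816387 to 44840809, was at 1193 CPM (1163 to 1224) in C1 of WT and 1276 (1257 to 1295) in C1 of Batf3-/-. The mature cDC1 of C12 had 1224 and 1360 CPM, and the counting intervals of both clusters overlapped. C1 was thus the second of the 20 WT clusters and of the 18 Batf3-/- clusters with at least 20 cells. Fabp5, a fatty acid binding protein encoded on chromosome 3 from 10012548 to 10016607, was at 2411 CPM (2368 to 2454) and 2816 (2788 to 2844). The next highest cluster had 490 CPM in WT (C16) and 926 in Batf3-/- (C12), so C1 led in both libraries.

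Relb, the transcription factor of the non-canonical NF-κB pathway on chromosome 7 from 19606217 to 19629438, was at 1002 CPM (974 to 1030) in WT and 1015 (998 to 1032) in Batf3-/-. The next highest cluster, C9, had 791 (721 to 866) in WT and 1001 (935 to 1070) in Batf3-/-. The paper reports low UMI counts per cell and prominent mitochondrial genes in C9. C12 followed with 720 (690 to 752) in WT and 893 (785 to 1012) in Batf3-/-. The lead of C1 was thus beyond counting error in WT and not in Batf3-/-. Ccr7, the receptor for CCL19 and CCL21 on chromosome 11 from 99144196 to 99155077, was at 831 CPM (806 to 857) and 930.2 (914 to 947). C12 lay above C1 in both libraries with 1935 and 2162 CPM, and C8 lay below it in WT with 693 CPM and above it in Batf3-/- with 1122. A broader set of 8 genes of mature dendritic cells summed to 5558 and 6150.3 CPM, second to C12 in both libraries.

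**Figure D1:**
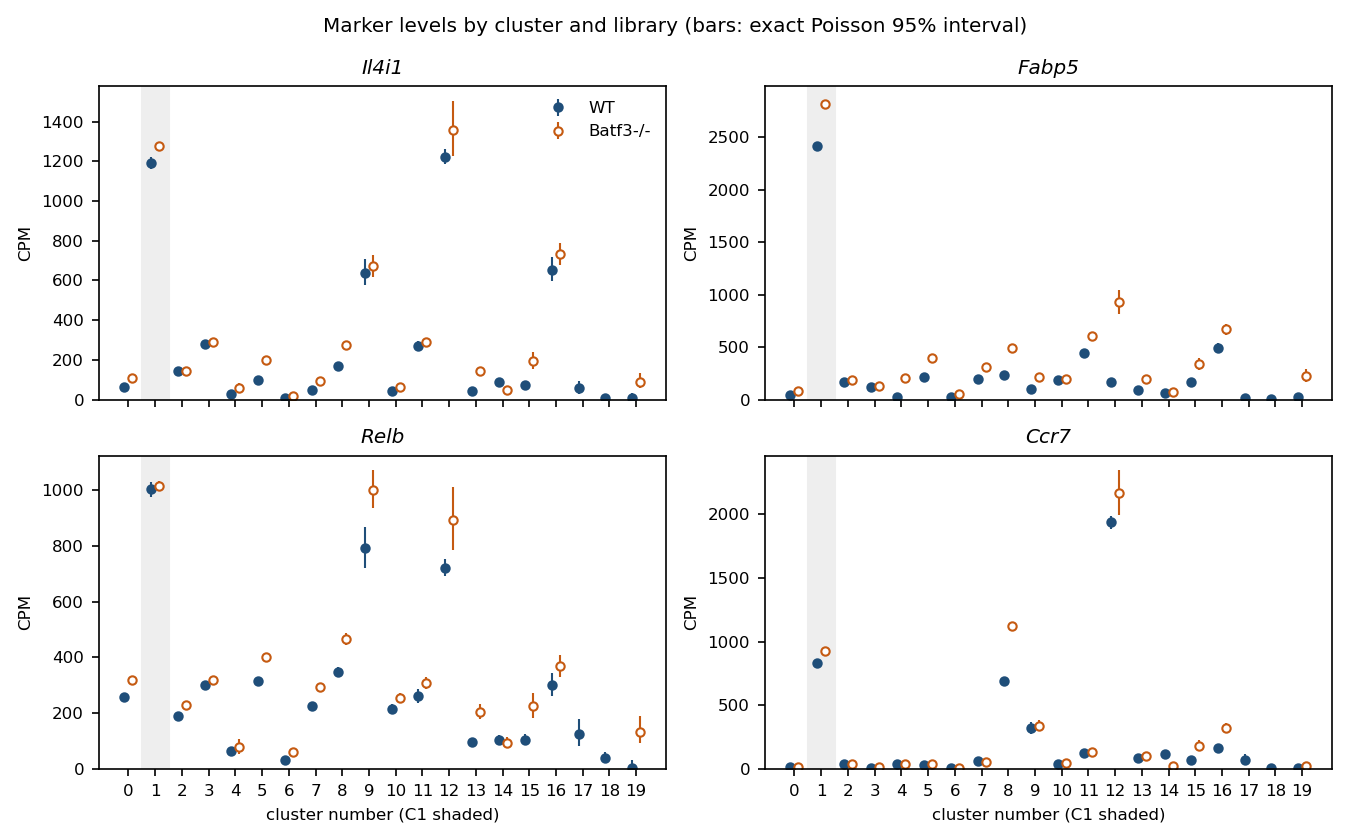
Level in CPM (vertical axis) of Il4i1, Fabp5, Relb and Ccr7 in each cluster (horizontal axis) with at least 20 cells, for WT (filled) and Batf3-/- (open), with exact Poisson 95% intervals as bars. C1 stands alone for Fabp5 at 2411 and 2816 CPM, shares the highest Il4i1 level with C12, and lies below C12 for Ccr7.

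The markers were also found cell by cell. After thinning each cell to 1000 UMIs, which left out 1 C1 cell in each library, a UMI of Il4i1 was found in 59.4% (55.8 to 63.1) of WT and 67.2% of Batf3-/- C1 cells. Without thinning the shares were 95.4% and 97.4%. For Fabp5 the thinned shares were 65.4% and 70.1%, for Relb 62.9% and 63.3%, and for Ccr7 52.8% and 49.6%. In the plasmacytoid dendritic cells of C14, which should lack the mature genes, the same thinned shares lay between 1.98% and 6.93%. Without thinning, at median depths of 8466 and 8982 UMIs, the shares in C14 lay between 11.9% and 39.6%. The shares in C1 were above this background for each of the 4 genes. This was partly built in, since C1 was formed from the same transcripts and the 4 genes define its label. At least 2 of the 4 markers were seen in 76.9% of WT and 81.6% of Batf3-/- C1 cells, against 4.16% and 7.08% in C0, the largest cluster, and 69.0% and 83.9% in C12. The 4 together were seen in 18.1% and 17.6% of C1 cells.

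The cDC2 side of the label rested on fewer genes. Sirpa, which encodes the cDC2 surface receptor CD172a, was at 167 CPM (155 to 178) in WT and 158 (152 to 165) in Batf3-/-. This was less than in C0, with 207 and 247 CPM, and above C12, with 41.8 and 50.6 CPM. Sirpa was uneven within C1, however. Of the substates described below, substate 2 had 66.7 and 68.8 CPM and substate 3 had 109 and 44.6, nearer to C12 than C1 as a whole. The 10 cDC2 genes examined summed to 1117 and 999 CPM, which placed C1 at rank 10 of 20 and 12 of 18. The other cells had 925 and 1427 CPM, so that C1 lay above them in WT and below them in Batf3-/-. Ltb alone gave 500 and 497 CPM of the C1 sum. The cDC2 sum was highest in C16, with 3652 and 4472 CPM, although Sirpa was at only 43.3 and 38.6 CPM there. Its rank is thus a weak guide to cDC2 identity. The 12 cDC1 genes summed to 1365 and 1332 CPM in C1, against 3272 and 1018 in the other cells and 6510.1 and 4180 in C4, the cluster in which they were highest. Of this cDC1 sum in C1, 1038 and 981 CPM came from Id2, a transcriptional regulator also used outside cDC1. Xcr1, the chemokine receptor that defines cDC1, was at 3.42 CPM in C1 of WT, and 3 of 720 thinned WT cells had a UMI of it. In the mature cDC1 of C12, 10 of 390 thinned WT cells had one, and the paper too reports almost no Xcr1 transcript there. Xcr1 was thus seen in few cells of either cluster, so a low level alone does not separate C1 from mature cDC1. The summed cDC2 genes of C1 were in the middle of the clusters.

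Markers of other cells are given because the sort could hold such cells. The 10 genes of cDC2b and monocytes summed to 196 and 219 CPM (13525 and 20122 in C15), the 8 pDC genes to 187 and 198 (13844 and 14043 in C14), and the 7 NK cell genes to 28.2 and 40.6 (3667 and 3578 in C13). The 5 T cell genes in the files summed to 77.2 and 74.9 CPM, above the 32.5 and 25.2 of the other cells and below the 1355 and 911 of C13. The 5 B cell genes summed to 74.8 and 98.0 CPM, against 47.2 and 68.9 in the other cells and 117 and 192 in the highest cluster. The T cell and B cell sums of C1 were thus above those of the other cells, at rank 4 and 5 of 20 in WT, and their part in other results was not tested. The 7 macrophage genes summed to 136 and 139.9 CPM, near the 139 and 163 of the other cells. Klrb1a had no UMI in C1 of either library, and Cd79a had none in WT. Neutrophil genes summed to 1.41 and 1.46 CPM and red cell genes to 18.7 and 16.6 CPM.

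Antibody counts gave a readout that was not used to build the clusters. The rows of the antibody tables are unnamed, and only the rows of CD4 and CD8A matched their own gene best in both libraries, and the gene matched the row best. The median CD8A count was 43 (quartiles 36 and 51) in C1 of WT and 42 (36 and 50) in C1 of Batf3-/-. These were close to the 41 and 41 of C0, and lower than the 97 and 79 of C12 and the 122 and 106 of C4. The median CD4 count was 35 in both libraries, between the 38 and 39 of C0 and the 30 and 32 of C12. In the row named CD8A, C1 thus lacked the high level of cDC1, without a test since each genotype was 1 library. Because that row was named by its correlation with Cd8a transcripts, its match to them was partly built in and is no separate support.

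Against all other cells of the same library, 209 of the 2628 genes that averaged 50 CPM or more were at least 2-fold higher in C1 in both libraries (7.95%) and 145 at least 2-fold lower (5.52%). The average was over C1 and the other cells of both libraries. Cdkn2b, Socs2, Cd200, Ccl22 and Tnfrsf4, for example, were under 50 CPM in the other cells. Such genes passed through C1 alone and could not be called lower. With at least 20 UMIs and no CPM minimum, 1170 genes were higher and 1897 lower. The median log2 ratio over all 2628 genes was -0.11 in WT and -0.18 in Batf3-/-. The other cells were not the same mixture in both libraries, since C4 and C12 held 2202 and 394 WT cells but 31 and 31 Batf3-/- cells. With only the other Sirpa+ clusters as comparator, 211 genes were higher and 184 lower, of which 185 and 108 were among the 209 and 145. Irf8, the cDC1 transcription factor, was at 98.0 CPM in C1 of WT and 925 in the other WT cells, but at 194 and 219.8 in Batf3-/-. Against the other Sirpa+ clusters its direction turned, with log2 ratios of 0.91 and 1.77.

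The highest ratios belonged to Cdkn2b, a cyclin-dependent kinase inhibitor, at 89.9 CPM in C1 and 3.16 in the other cells of WT and 112 and 3.95 in Batf3-/- (28.5-fold and 28.3-fold). Prnp, the prion protein gene, was at 191 against 9.14 CPM in WT and 186 against 8.36 in Batf3-/-. Socs2, a feedback inhibitor of cytokine receptors, was at 448 against 28.5 CPM and 518 against 18.02. The ratio of Socs2 was the larger in Batf3-/-, and those of Cdkn2b and Prnp were similar in both libraries. Cd63, a tetraspanin of late endosomes, was at 504 against 35.5 CPM and 602 against 25.6. Fscn1, the actin-bundling protein fascin of mature dendritic cells, was at 653 against 48.1 CPM and 927 against 50.8, and Anxa3, an annexin, at 730.3 against 46.9 and 1045 against 64.5. Fxyd2, Nudt17, 2610528A11Rik, H2-M2 and Tmcc3 completed the 12 highest with Fabp5, which was 26.5-fold higher in WT and 14.1-fold in Batf3-/-.

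The lowest ratios fell into cell cycle genes, hemoglobin genes and a pair of others, Naaa and Unc119. Pclaf, a PCNA-associated factor of replication, was at 4.02 CPM in C1 against 122 in the other cells of WT and 4.81 against 163 in Batf3-/-. Mki67 and Top2a, both expressed in dividing cells, were at 10.1 and 12.9 CPM in C1 of WT, against 104 and 96.4 in the other WT cells. Stmn1, Hist1h2ap, H2afx and Cks1b, also linked to division or chromatin, were among the 12 lowest too. Among cells in phase G1 only, the log2 ratios of Pclaf, Hist1h2ap and Top2a were 0.23, 0.03 and 0.30 in the library with the smaller change, within 2-fold of the other cells and on the higher side. The authors assigned the phases from the expression of cell cycle genes, so this loss of difference was partly built in. Naaa, a lipid amidase used as a cDC1 marker, was at 23.1 against 470.3 CPM in WT and 7.15 against 42.1 in Batf3-/-. With only the other Sirpa+ clusters compared, the hemoglobin genes Hbb-bs, Hba-a1 and Hbb-bt were within 2-fold in the library with the smaller change (log2 ratios -0.54, -0.67 and -0.32).

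**Figure D2:**
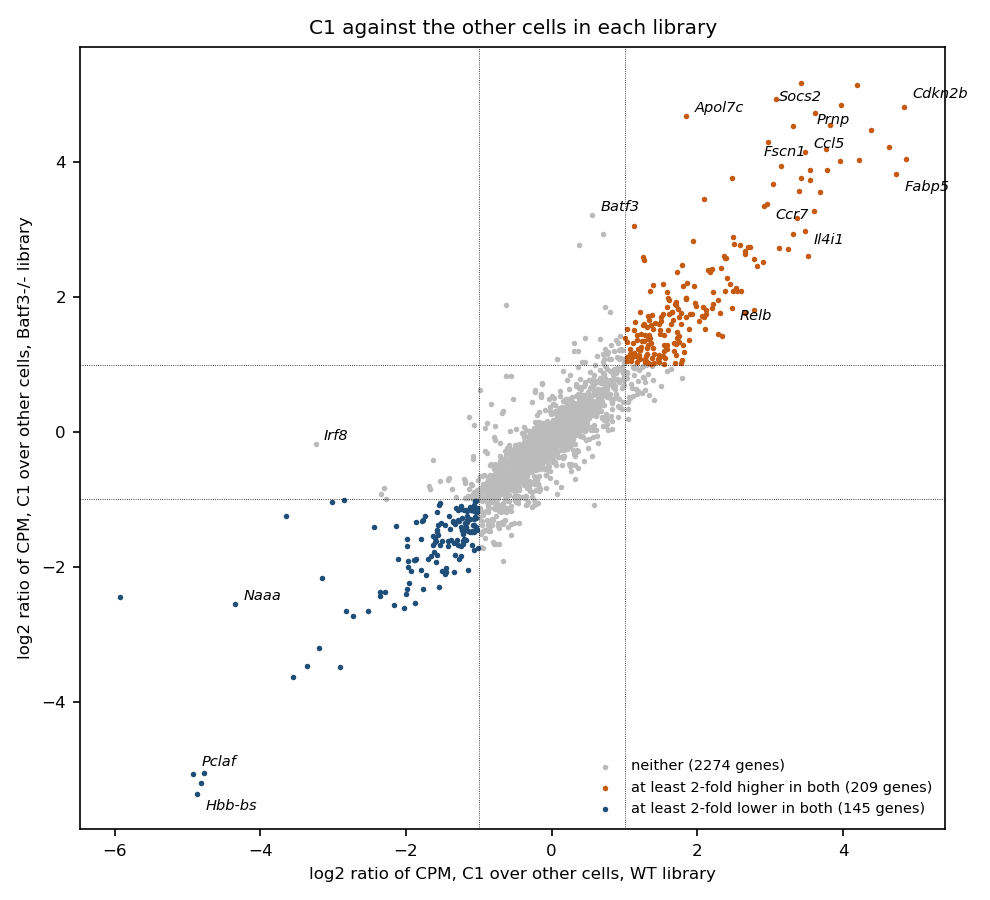
Log2 ratio of CPM of C1 over the other cells in the WT library (horizontal axis) and in the Batf3-/- library (vertical axis) for the 2628 genes averaging 50 CPM or more. The 209 genes at least 2-fold higher in both libraries and the 145 at least 2-fold lower are coloured, and Cdkn2b and Fabp5 lie at the upper right while Pclaf and Hbb-bs lie at the lower left.

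Genes of the NF-κB family and its feedback were mostly higher in C1. This list and those below were chosen with earlier results of these data known. Their counts beside the shares of all genes are thus descriptions and no separate support. Of 24 genes 20 reached a mean of 50 CPM, of which 12 were at least 2-fold higher in both libraries and none lower, with a median log2 ratio of 1.30 in WT and 1.11 in Batf3-/- (all genes: -0.11 and -0.18, with 7.95% higher and 5.52% lower). Against the other Sirpa+ clusters 10 were higher, without Nfkbiz and Traf2. Birc2, a ubiquitin ligase that restrains the NF-κB inducing kinase, was at 501 CPM in C1 and 77.2 in the other cells of WT, and 577 and 85.9 in Batf3-/-. Traf1, an adaptor of TNF receptors, was at 1396 against 302 CPM and 1354 against 321. The feedback inhibitors Nfkbia and Tnfaip3 and the atypical inhibitor Bcl3 were higher as well. Nfkbia was at 1101 against 383 CPM in WT and 1030.5 against 469.7 in Batf3-/-. Tnfaip3 was at 112 against 39.8 CPM and 103 against 35.9, and Bcl3 at 81.3 against 22.99 and 86.6 against 38.2. The subunits were uneven. Relb, which is itself a marker of the label and 1 of the 12, was 5.55-fold and 3.59-fold higher. Rel and Rela stayed under 2-fold, and Nfkb1 was the one member lower in both libraries, with log2 ratios of -0.37 and -0.97. Bcl2a1b and Bcl2a1d are near-identical copies whose UMIs may be split or lost in counting, so their values are uncertain.

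Promoters are shown for 3 of the NF-κB feedback genes and for Il4i1, because the 3 were the higher members of the list with a match to the κB consensus and Il4i1 gives the cluster its name. The windows run from 250 bases before to 50 bases after the start of transcription in RefSeq (build GRCm38.p6), 5′ to 3′ on the gene's strand, at chr7:19822706-19823005 (minus strand), chr10:19015361-19015660 (minus), chr12:55492598-55492897 (minus) and chr7:44836038-44836337 (plus). Capitals mark matches to the κB consensus on either strand.
Bcl3: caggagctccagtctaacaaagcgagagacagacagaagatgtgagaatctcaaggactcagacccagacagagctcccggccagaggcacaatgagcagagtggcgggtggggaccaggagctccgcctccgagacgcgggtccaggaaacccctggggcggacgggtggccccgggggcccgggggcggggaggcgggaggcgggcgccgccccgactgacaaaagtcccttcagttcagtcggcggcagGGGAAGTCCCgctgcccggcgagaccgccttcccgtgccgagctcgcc
Tnfaip3: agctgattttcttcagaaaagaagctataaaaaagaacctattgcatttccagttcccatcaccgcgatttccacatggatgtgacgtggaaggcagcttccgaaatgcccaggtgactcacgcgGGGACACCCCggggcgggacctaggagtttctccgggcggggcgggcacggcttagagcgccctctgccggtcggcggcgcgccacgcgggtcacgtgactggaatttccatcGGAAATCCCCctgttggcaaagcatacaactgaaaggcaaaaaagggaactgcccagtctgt
Nfkbia: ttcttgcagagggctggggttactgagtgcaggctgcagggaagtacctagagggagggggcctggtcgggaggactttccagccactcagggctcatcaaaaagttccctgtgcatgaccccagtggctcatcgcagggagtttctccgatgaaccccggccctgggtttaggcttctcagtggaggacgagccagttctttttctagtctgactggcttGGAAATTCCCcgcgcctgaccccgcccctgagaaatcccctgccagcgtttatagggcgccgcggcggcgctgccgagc
Il4i1: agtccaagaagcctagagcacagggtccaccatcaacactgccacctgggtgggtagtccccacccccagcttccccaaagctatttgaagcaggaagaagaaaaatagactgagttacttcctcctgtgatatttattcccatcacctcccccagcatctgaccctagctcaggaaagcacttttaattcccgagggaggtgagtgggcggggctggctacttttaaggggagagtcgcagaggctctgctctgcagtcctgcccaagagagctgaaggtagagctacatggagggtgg
The Bcl3 and Nfkbia windows held 1 match each, that of Tnfaip3 held 2 and that of Il4i1 none. Of the 12 higher members of the list 10 had a window, and the 7 besides these 3 held no match. Among the genes higher in C1 in both libraries, 167 had such a window and 38 of them held a match (22.8%). The share was 12.0% of 12722 genes of the files with a window, 13.0% of the 2096 that reached 50 CPM and 11.3% of the 115 lower in C1. A match is a stretch of letters and was not tested for binding. Fabp5, Relb and Ccr7 had no window in the table used here. The Il4i1 window lies inside the span that GENCODE M21 gives the gene, and that span overlaps Nup62, so UMIs of the overlap may be counted for either.

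Genes of migration and the cytoskeleton showed the same direction. Of 22 genes 17 reached 50 CPM, with 10 at least 2-fold higher in both libraries, 1 lower and medians of 1.51 and 1.6, where the shares over all genes were 7.95% and 5.52%. Ccr7, a marker of the label, was 1 of the 10, and so were Fscn1 and Anxa3, which were among the 12 highest ratios above. Tmem123, a surface protein of dendritic cells, was at 1344 against 128 CPM in WT and 1392 against 117 in Batf3-/-, and Marcksl1, an actin regulator, at 873 against 91.8 and 826 against 126. Gpr183, the oxysterol receptor that positions cDC2 in the spleen, was at 269 against 77.3 CPM and 296 against 122. Itgb7, an integrin chain, was the one lower member, at 51.1 against 139.6 CPM and 37.0 against 156.

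Of 21 costimulation genes only 10 reached 50 CPM, with 6 higher, 1 lower and medians of 1.67 and 1.84 (all genes: 7.95% and 5.52%). The other cells include the mature cDC1 of C12, which are compared alone further below. Tnfrsf4, which encodes OX40, was at 116 CPM in C1 and 14.8 in the other cells of WT and at 131 and 6.59 in Batf3-/-. Icosl, the ligand of ICOS on T cells, was at 249 against 51.2 CPM and 261 against 67.2. Cd83 was at 761 against 218 and 687 against 153, and Cd40, the receptor for CD40L, at 166 against 53.1 and 196 against 57.0. Cd86 was under 2-fold in both libraries and in opposite directions, with 129 against 151 CPM in WT and 122 against 80.6 in Batf3-/-. Cd24a was lower, at 18.5 against 100.1 and 26.2 against 69.2 CPM, but under 2-fold against the other Sirpa+ clusters (log2 ratios -0.61 and -0.72).

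Of 23 genes of immune regulation 7 reached 50 CPM, of which Socs2, Il4i1 and Cd200 were higher and Havcr2 lower, beside 7.95% and 5.52% of all genes. Il4i1 is itself a marker of the label, and Socs2 and Cd200 reached 50 CPM through C1 alone. Cd200, the ligand of an inhibitory receptor, was at 91.7 against 11.1 CPM in WT and 107 against 8.402 in Batf3-/-. Cd274, which encodes PD-L1, was at 79.0 against 32.6 CPM and 71.2 against 42.7, so that it passed 2-fold in WT only. Among 14 chemokine ligands 6 reached 50 CPM, with 3 higher and 1 lower (all genes: 7.95% and 5.52%). The lower one, Cxcl9, was under 2-fold against the other Sirpa+ clusters (log2 ratios -0.27 and -0.66). Ccl5, a chemokine that attracts T cells, was at 5946 CPM in C1 of WT against 534 in the other cells and at 5426 against 305 in Batf3-/-. Ccl22, a ligand of CCR4, was at 81.1 against 9.62 and 148 against 4.85, and Cxcl16 at 435 against 78.3 and 511 against 37.6.

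Antigen presentation genes gave a mixed picture, and few uptake genes could be compared. Of 32 pattern recognition and uptake receptors in the files only 3 reached 50 CPM. None was higher in both libraries and Cd209a was lower (all genes: 7.95% and 5.52%), at 30.8 against 113 CPM in WT and 33.0 against 192 in Batf3-/-. With 3 members this is no result about the list. The MHC class II genes had 15 of 16 members at 50 CPM, with 1 higher, 3 lower and medians of -0.11 and -0.28. The 1 higher is near the 7.95% of all genes, beside 5.52% lower. H2-Aa was at 7862 against 8289 CPM and 7239.7 against 8537. H2-DMb1, a subunit of the peptide editor, was at 146 against 435 and 136 against 378, while March1, a ligase that removes MHC class II from the surface, was at 35.0 against 139 and 42.0 against 135. H2-Eb2 was the higher member, at 303 against 50.04 CPM and 259 against 60.7. MHC class I genes had 3 of 16 members higher and none lower (medians 0.26 and 0.52), beside 7.95% and 5.52% of all genes. The 3 were H2-Q6 and H2-Q7, which share near-identical sequence and are uncertain, and Psme2, an activator of the proteasome.

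Among 9 cholesterol and lipid genes at 50 CPM, 4 were higher and none lower, beside 7.95% and 5.52% of all genes. Fabp5, a marker of the label, was 1 of the 4. Idi1 and Hmgcs1 of sterol synthesis were at 73.8 against 31.2 and 83.1 against 36.4 CPM in WT. In Batf3-/- they were at 99.7 against 39.1 and 102 against 47.1 CPM. Apol7c, an apolipoprotein L, was at 1501 against 417 CPM in WT but 1423 against 55.4 in Batf3-/- beside 31 cells each of C4 and C12. Among 6 interferon-stimulated genes Gbp2 was higher and Irf7 lower in both libraries. These are about the shares of all genes (7.95% and 5.52%) and no result about the list. Of 24 transcription factors at 50 CPM 5 were higher and 2 lower, the latter near the share of all genes. Tcf7, a factor of the WNT pathway, was at 164 against 14.4 CPM and 128 against 20.8, Etv3 at 863 against 152 and 831 against 121, and Spib at 90.9 against 21.2 and 106 against 36.6. Bhlhe40 and Stat5a were the other two higher factors and Nr4a1 and Bcl11a the lower ones. Of 15 immediate early and heat shock genes, which respond to handling of cells, none was higher and Fos alone was lower, at 267 against 652 CPM in WT and 274 against 607 in Batf3-/-. These counts too are near the shares of all genes.

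**Figure D3:**
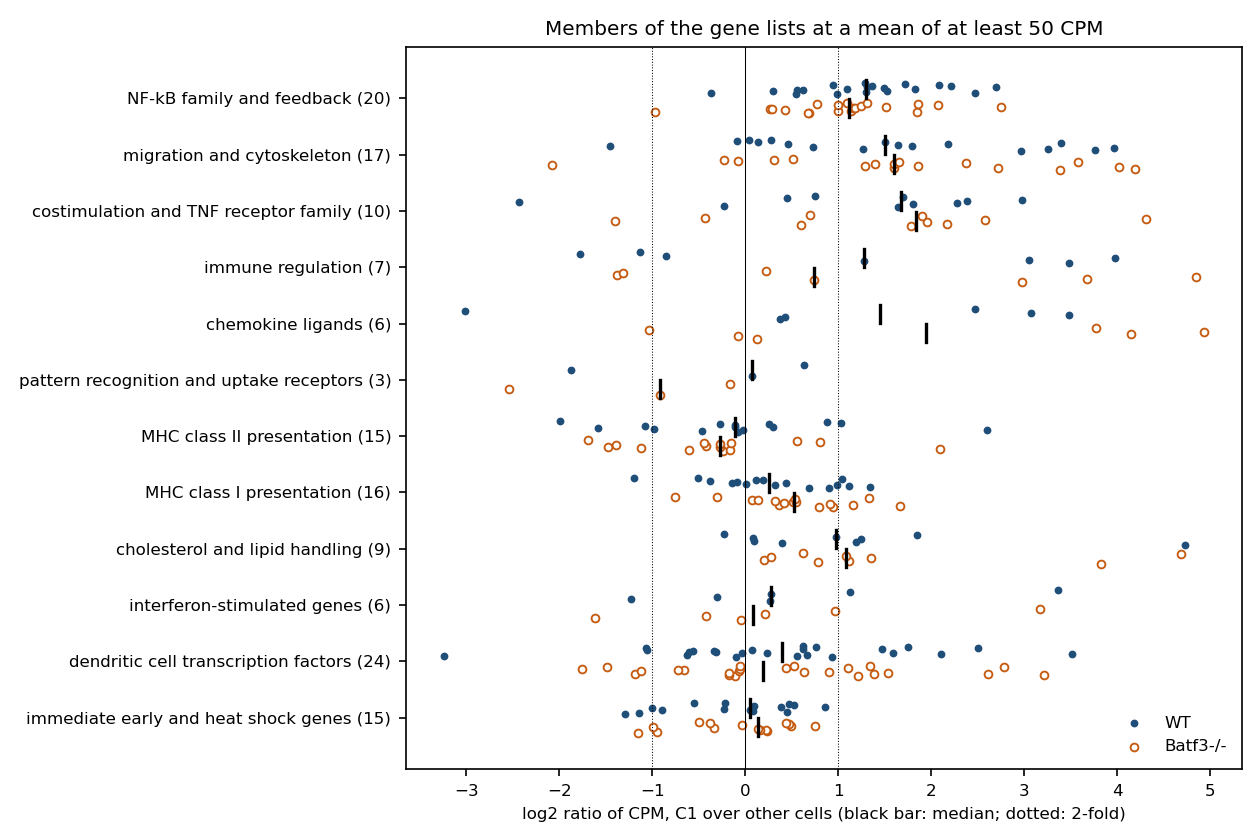
Log2 ratio of CPM of C1 over the other cells (horizontal axis) for each member of 12 gene lists that averaged 50 CPM or more, in WT (filled) and Batf3-/- (open), with the median as a black bar and the number of members in brackets. NF-κB, migration and costimulation members lie mostly to the right of 0 (medians 1.30, 1.51 and 1.67 in WT), and MHC class II members lie around 0 (-0.11).

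The nearest neighbour of C1 by maturation genes was C12, the mature cDC1, with 394 WT and 31 Batf3-/- cells. In WT, 222 of 2414 genes were at least 2-fold higher in C1 (9.2%) and 215 at least 2-fold lower (8.91%), with a median log2 ratio of 0.16. The Batf3-/- values are given beside them and rest on few C12 cells. Fabp5 reached 2411 CPM in C1 of WT but 169 in C12, a 14.3-fold ratio, and at 2816 and 926 in Batf3-/-, a 3.04-fold ratio. Gpr183 was at 269 and 18.9 CPM in WT and 296 and 79.5 in Batf3-/-. Zeb2, a transcription factor of cDC2 and plasmacytoid dendritic cells, was at 344 and 30.0 CPM in WT and 372 and 57.9 in Batf3-/-. S100a4, a calcium-binding protein, was at 1912 and 241 CPM in WT and 2361 and 336 in Batf3-/-. 2610528A11Rik had 1006 UMIs in C1 and none in C12 of WT, at least 200.2-fold higher against the limit of 3 counts. Ryr3, Crispld2 and Mcemp1 were the others of the 8 highest.

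The 8 lowest were genes that C12 expressed. Gclc, a subunit of the enzyme that makes glutathione precursors, reached 1574 CPM in C12 of WT and 39.8 in C1, and 296 and 40.9 in Batf3-/-. Il12b, which encodes a chain of IL-12, was at 23.1 and 471 CPM in WT but 30.9 and 65.1 in Batf3-/-. Cd8a was at 30.8 and 350.5 CPM in WT and 40.5 and 209.7 in Batf3-/-. The CD8A antibody counts, from a row named by its correlation with Cd8a, had the same order. Laptm4b, Tspoap1, Lima1, Bcl2l14 and Ncoa7 were the others of the 8 lowest.

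The markers of the label differed among themselves in this comparison. Il4i1 had a log2 ratio of C1 over C12 of -0.04 (-0.10 to 0.02) in WT, so no difference was detectable at this depth. The log2 ratio of Ccr7 was -1.22 (-1.28 to -1.16) and that of Relb 0.48 (0.40 to 0.55). None of 23 NF-κB genes was 2-fold higher in C1 and 1 was lower, with a median of -0.18, beside 9.2% and 8.91% of all genes. Of 16 migration genes 1 passed 2-fold upward (Gpr183) and 4 downward, with a median of -0.35. For 11 costimulation genes these counts were 1 (Ltb) and 2 (Tnfrsf4 and Cd40), with a median of -0.35. For 6 chemokine ligands they were 2 (Ccl3 and Ccl4) and 2 (Ccl22 and Cxcl9), with a median of -0.23. The medians of these lists thus lay on the side of C12, while against all other cells they lay on the side of C1. Of the MHC class II genes 7 of 14 were at least 2-fold higher in C1 than in C12 and none lower, with a median of 0.92. H2-Ab1 reached 7181 CPM in C1 against 3537 in C12, and Ciita, the class II transactivator, was at 362 and 109.5.

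Between genotypes the C1 cells differed in few genes by the 2-fold rule. Of the 2494 genes averaging 50 CPM or more, 4 were at least 2-fold higher in Batf3-/- (0.16%) and 1 lower (0.0401%). The median log2 ratio was -0.01, and the middle 90% of genes lay between -0.32 and 0.27. Batf3 itself was lower, at 297 CPM (282 to 313) in WT and 11.6 (9.86 to 13.5) in Batf3-/-, a log2 ratio of -4.68 (-4.93 to -4.44). Its remaining level was above that of C0, with 1.65 CPM in Batf3-/-, and within the counting intervals of C12 (21.7, 7.96 to 47.2) and C9 (17.4, 9.72 to 28.7). The targeted gene thus followed the library labels in C1.

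The 4 genes higher in Batf3-/- were Atf3, Clu, Vim and Tspo. Atf3, a stress-induced transcription factor, lies near the targeted gene, on chromosome 1 from 191170296 to 191218039 where Batf3 runs from 191097847 to 191108945. It was at 62.2 CPM in WT and 139 in Batf3-/- (log2 ratio 1.16, 0.99 to 1.34). Clu, the chaperone clusterin, was at 40.4 and 86.2 CPM (1.09, 0.88 to 1.32). Vim, the intermediate filament vimentin, was at 377 and 766 CPM (1.02, 0.95 to 1.09), and Tspo, an outer mitochondrial membrane protein, at 220.5 and 447 (1.02, 0.93 to 1.11). In C0 the log2 ratios of Atf3, Vim and Tspo were 0.23, 0.29 and 0.16, and in C8 they were -0.06, 0.34 and 0.54. Clu had 7 and 12 UMIs in C0, too few for a ratio.

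Just under 2-fold were Irf8, Net1, Crip1, Ccl22, Tubb2a and Uap1. Irf8 was at 98.0 CPM in WT and 194 in Batf3-/- (0.99, 0.85 to 1.13), while in C0 it was at 21.3 and 15.4 (-0.46). In C8, which also had high Ccr7, Irf8 was at 46.8 and 85.9 CPM (0.88, 0.62 to 1.13). Crip1, a LIM domain protein, was at 809.6 and 1487 CPM (0.88), and Ccl22 at 81.1 and 148 (0.87). On the lower side, Dtx1, a regulator of Notch signaling, was at 135 and 67.9 CPM (-0.99, -1.14 to -0.85) and Wdfy4, a gene needed for cross-presentation, at 112 and 59.7 (-0.91). Both were lower in C0 too, with log2 ratios of -0.40 and -0.40. Efhd2, a calcium-binding protein of the cytoskeleton, was at 401 and 221 CPM (-0.86), and it was lower by more in C0 (-1.22). Gm47283, Acp5, Ccl9, Asb2, Nr4a1 and Hist1h2bc were the others of the 10 lowest. The markers of the label changed little, with log2 ratios of 0.10 for Il4i1, 0.22 for Fabp5, 0.02 for Relb and 0.16 for Ccr7. Fscn1 was at 653 and 927 CPM (0.51).

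**Figure D4:**
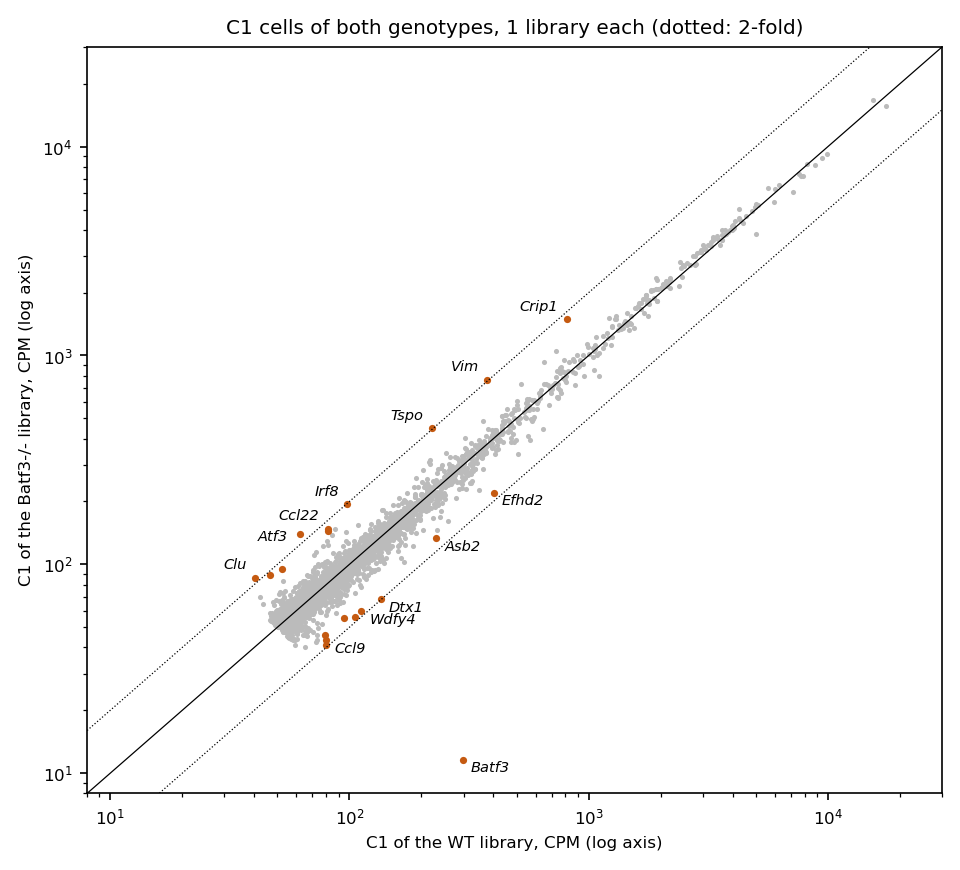
Level in CPM of 2494 genes in C1 of the WT library (horizontal, log axis) and of the Batf3-/- library (vertical, log axis), with the 10 highest and 10 lowest ratios coloured. Most genes lie along the diagonal and Batf3 lies far below it (297 and 11.6 CPM), while Atf3, Clu, Vim and Tspo lie at or just above the upper 2-fold line.

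C1 made up 5.90% (5.49 to 6.33) of WT and 15.2% (14.6 to 15.9) of Batf3-/- cells. These are shares of sorted cells, so that fewer cells of other types and more cells of C1 cannot be told apart. C12 moved the other way, with 394 and 31 cells, and C0 held 3176 and 2961.

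C1 was divided further by Leiden clustering at resolution 0.3, which gave 5 substates numbered by size. They are descriptions, their leading genes served to form them, and their number depended on the resolution (3 at 0.2 and 8 at 0.6). Cells of both libraries were found in each. Substate 1 had 239 WT and 568 Batf3-/- cells and was led by Ifitm1, Pglyrp1, Scn3a, Cyp4f16 and Ffar2. It had the lowest Ccr7 (377 and 303 CPM) and Socs2 (99.1 and 87.2) and the highest Sirpa (259.8 and 292) of the 5. Sirpa was unevenly spread, at 66.7 and 68.8 CPM in substate 2, 109 and 44.6 in substate 3 and 102 and 145 in substate 4. The mature cDC1 of C12 had 41.8 and 50.6 CPM of Sirpa. Substate 2 had 122 and 543 cells and was led by Clu, Ccl17, Ccl22, Crip1 and Zmynd15. Ccl17 and Ccl22 both encode ligands of CCR4. Ccl17 was at 52.9 CPM in WT and 148 in Batf3-/-, Ccl22 at 361 and 429, and Fabp5 was highest here (4444 and 4435).

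Substate 3 had 109 WT and 318 Batf3-/- cells and was led by Lta, Il12b, Tex15, Fam89a and Ccl4. Its Ccl5 level was 21489 CPM in WT and 23391 in Batf3-/-, and Tnf was at 466 and 340.2, against 50.8 to 91.9 in the other WT substates. H2-DMa, a subunit of the MHC class II peptide editor, was at 104 and 77.1 CPM, the lowest of the 5. Il12b was at 106 and 148 CPM in substate 3, beside 471 and 65.1 in C12. Irf8 was at 215 and 369 CPM, beside 454 and 673 in C12. Substate 4 had 163 and 262 cells and was led by Dkk2, Crispld2, Cdcp1, Asprv1 and Ankrd35, and Tcf7 was highest here (394 and 314 CPM). Dkk2 encodes a secreted modulator of WNT signaling.

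Substate 5 had 88 WT and 154 Batf3-/- cells and was led by Cd209a, Gpr141, AC140186.1, Plac8 and Zfp36l2. Its cells had a median of 12467 and 14334.5 UMIs, against 4746 to 6873 in the other substates, and the lowest Il4i1 (633 and 684 CPM) and Relb (672 and 634). All 17 cells of C1 that Scrublet called as doublets in WT were here, and 47.7% and 81.8% of the substate were among the 5% of each library with the highest doublet scores. Whether these cells were droplets with more than 1 cell was not tested further. Without the cells of highest score 74 of its 242 cells remained, 58 of them in the group of 886 cells that held most of substate 1, and at resolution 0.2 it also joined the group of substate 1. Other substates were not fixed either. At resolution 0.2 a group of 1257 cells held 99.5% of substate 2 and 98.4% of substate 4. At 0.6 the largest group held 47.6% of substate 1 and 49.0% of substate 2.

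**Figure D5:**
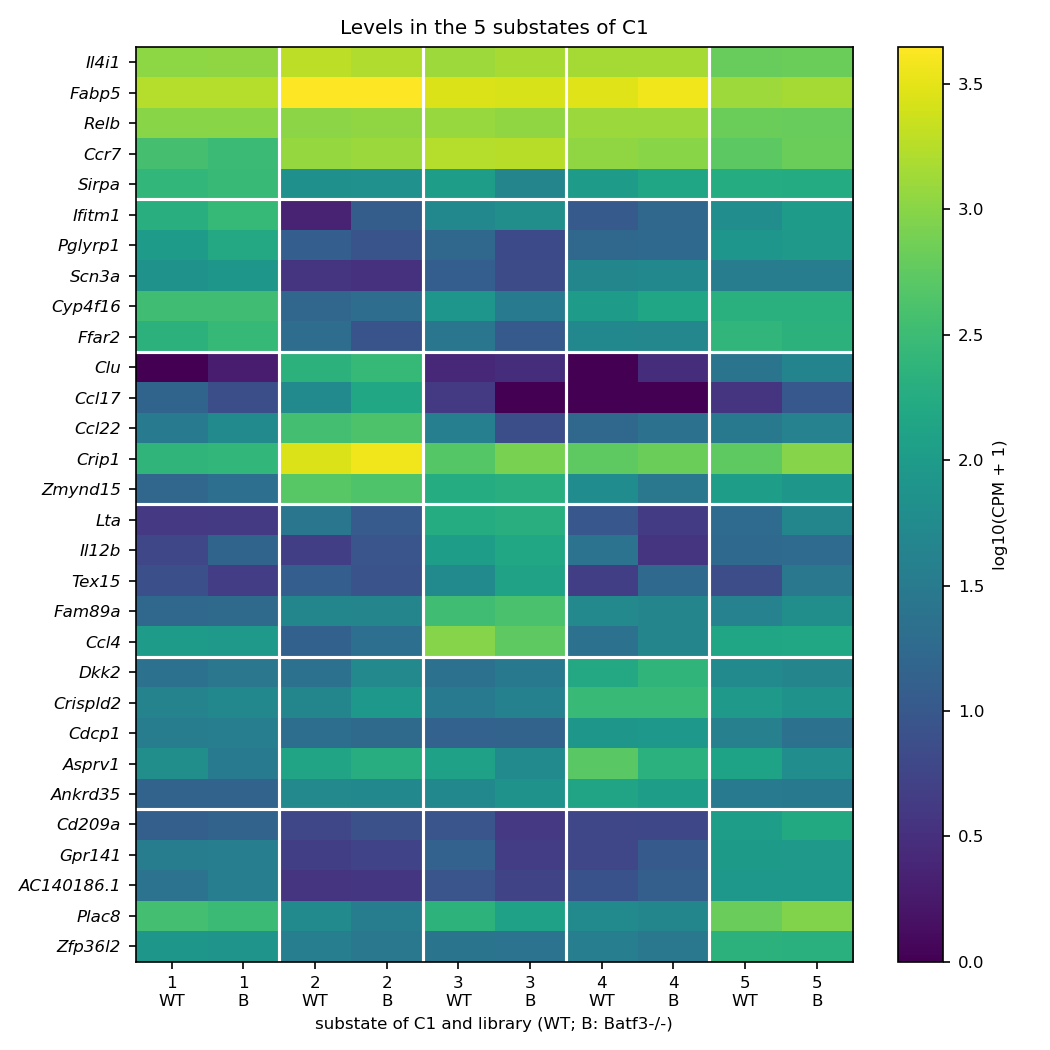
Levels as log10(CPM + 1) (colour) of the 4 markers, Sirpa and the 5 leading genes of each of the 5 substates (rows) in each substate and library (columns). Each leading gene is brightest in its own substate in both libraries except Ffar2 of substate 1, which is brighter in substate 5 of WT, and Fabp5 is brightest in substate 2 (4444 and 4435 CPM).

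The genotype differences were looked at within the substates. The log2 ratio of Batf3-/- over WT was above 0 in 5 of 5 substates for Atf3 (0.35 to 1.75), Vim (0.43 to 1.48) and Tspo (0.38 to 1.19). It passed 2-fold in substates 2, 3 and 4 for Atf3 and in substate 3 alone for Vim and Tspo, and the counting interval of Atf3 in substate 1 included 0. Clu, which was highest in substate 2, had a log2 ratio of 0.34 there (218 and 275 CPM) against 1.09 in C1 as a whole. Substate 2 held 16.9% of WT and 29.4% of Batf3-/- C1 cells, but sizes are not compared as a result, since genes that form the substates also differ between libraries. Irf8 was uneven, with 0.08, 0.58, 0.78, -0.89 and 1.85 in substates 1 to 5. Ccl5 was lower in Batf3-/- in substates 1, 2 and 4 (-1.23, -1.03 and -2.10) and not in substates 3 and 5 (0.12 and 0.21). Batf3 was lower in each, with log2 ratios from -5.69 to -3.96.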

How the data were processed

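Transcripts and surface tags were measured by CITE-seq in 1 library per genotype, each of 6 pooled spleens. The authors aligned reads to GRCm38 (mm10) with Cell Ranger after bcl2fastq 2.2.0, evened sequencing depth between the libraries, filtered cells and clustered them with Seurat 3.0.5 on 16 components by Louvain at resolution 0.5. Raw counts were deposited for both readouts, as the UMIs of each gene and of each antibody row in every cell. The normalized tables are deposited as natural log values, in which RNA counts were scaled to 10000 per cell and 1 was added, and were used only to check the raw tables and to rank tags. The share of mitochondrial and ribosomal UMIs in a cell is deposited as a fraction. Cluster numbers, SingleR labels and phases are the authors'.

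UMIs were summed by cluster and library and divided by all UMIs of those cells (CPM), over 17751 genes. Cells are not replicates, so no test was made, and a ratio of at least 2 was called among genes that averaged 50 CPM or more, in both libraries for C1 against the other cells. Where a gene had no UMI, the ratio was taken against 3 counts. Named genes were the 4 markers, the 12 highest and 12 lowest against the other cells (by the smaller change), the 8 and 8 against C12, the 10 and 10 between genotypes, list members at the extremes or named by the study, and 5 leading genes per substate. Members and lists were chosen with earlier results of these data known. Shares of cells with a UMI used cells thinned to 1000 UMIs. Substates used 1000 variable genes, 16 components and 20 neighbours. Scrublet, at an expected rate of 0.1, marked 438 WT cells and 1 Batf3-/- cell, so the caller did not work for the latter. Leaving out the highest 5% of scores in each library and leaving out substate 5 were added after seeing the data, and no doublet was removed from the values reported. A tag row was to be named by mutual best correlation with its gene in WT, which named 4 rows. After seeing the data only the 2 rows that also held in Batf3-/- were used, and 9 of the 11 rows were not. Gene positions are from GENCODE M21 and promoter windows from RefSeq. Clustering and doublet scores came from scanpy 1.11.5 (with igraph 0.11.9 and anndata 0.12.19), intervals from scipy 1.17.1, and sums from numpy 2.4.6 and pandas 2.3.3, under Python 3.11.15, with figures by matplotlib 3.10.9. The ratios and their intervals were tested on simulated data. Alternatives were other CPM minima, weighting of cells, left-out mitochondrial and ribosomal genes, phase G1 only, other comparators, other denominators, depths and resolutions.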

Additional observations from a re-analysis of the deposited data

How the results depend on the processing

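No paired analysis was possible because each genotype is 1 library. Of 529 recomputed gene ratios 506 kept their direction and their side of 2-fold, 20 crossed it or moved, and 3 reversed, all among cells in phase G1 (Pclaf 0.23, Hist1h2ap 0.029 and Top2a 0.30). Counts of genes, shares of C1, numbers of substates and tag ranks were less stable. Of 64 such recomputed values 39 stayed within the limits set for them and 25 moved.

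The counts depend on the minimum level. At a mean of at least 20 CPM, 343 genes were higher and 334 lower in C1 than in the other cells, 519 and 347 in C1 than in C12, and 10 and 6 in Batf3-/- than in WT. With at least 20 UMIs and no CPM minimum the counts were 1170 and 1897, 1811 and 658, and 226 and 154. All genes called at 50 CPM were among them, but more genes were then lower than higher against the other cells. With mitochondrial and ribosomal protein genes left out, 223 genes were lower than in the other cells, 351 higher than in C12, and 7 higher and 3 lower in Batf3-/-. The genes lower in Batf3-/- numbered 3 in phase G1 (Batf3, Dtx1 and Wdfy4), 5 without the highest 5% of doublet scores (these and Acp5 and Nr4a1) and 3 without substate 5. Those higher numbered 6 (with Irf8 and Net1), 5 (with Net1) and 5 (with Hspb1) in the same settings, and Irf8 passed 2-fold too without mitochondrial and ribosomal protein genes. Clu was just under 2-fold (0.99) when cells were weighted equally. The share of C1 was 8.32% of WT and 16.3% of Batf3-/- cells outside C4, C6, C12, C17 and C18, and 6.34% and 16.3% of cells labelled DC. Substates numbered 3 at resolution 0.2 and 8 at 0.6, and 4 without the highest doublet scores. The shares of cells with a UMI are bound to depth: at 2000 UMIs per cell Il4i1 was found in 81.8% and 85.4% of C1 cells.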
